A study of Homo sapiens with 12 samples.

Results

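SPARC and its relatives are secreted proteins that carry a follistatin-like domain and an extracellular calcium-binding domain. The 8 genes described here were taken by symbol: SPARC and SPARCL1 (hevin), the testican proteoglycan genes SPOCK1, SPOCK2 and SPOCK3, the genes SMOC1 and SMOC2 of modular calcium-binding proteins, and FSTL1 (follistatin-like 1). All 8 symbols were found among the 58051 genes of the count tables, of which 40207 had at least 1 read in the 12 libraries. Proteins of this family are called matricellular because they sit in the extracellular matrix and tune how cells contact it rather than building it. SPARC binds collagens, the testicans are known as modulators of matrix proteases, the SMOC proteins act in basement membranes and in BMP signalling, and FSTL1 is known for effects on BMP signalling and inflammation. MicroRNAs of the miR-29 family lower many matrix mRNAs by pairing their seed (bases 2 to 8) with the 3′ UTR.

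The libraries were made from 3 established human cell lines labelled as clear cell renal cell carcinoma, 786-O, A-498 and ACHN, by RNA-seq of total RNA depleted of ribosomal RNA. 786-O and A-498 cells received either a control mimic or a synthetic RNA that mimics miR-29. ACHN cells received either a control inhibitor or a miR-29 inhibitor, which blocks the endogenous miRNA. Each reagent was used at 10 nM and RNA was taken 48 h later. Each group had 1 library for 786-O, 2 for A-498 and 3 for ACHN, so 786-O carries no replicate check. The study states that 2 further A-498 libraries of the mimic experiment were left out because they may have been mislabelled. No line received both reagents, so a difference between mimic and inhibitor cannot be told apart from a difference between lines.

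The libraries held between 39919554 and 70027392 reads assigned to genes. At least 10 of 11 renal marker genes reached 1 CPM (the usual count per unit of sequencing depth, here scaled by TMM) in every group, although CA9, a hypoxia-induced enzyme often high in clear cell carcinoma, stayed at or below 0.331 CPM in 786-O and 0.166 CPM in ACHN. None of 5 endothelial and none of 5 blood markers reached 1 CPM, with summed levels of at most 0.903 and 0.448 CPM. Among 12 tested genes known as miR-29 targets outside the family, 11 were lower with the mimic in A-498 and 12 of 12 were higher with the inhibitor in ACHN (edgeR, adjusted p under 0.05). In 786-O, 9 of 12 were lower past 2-fold.

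The mature miR-29 sequences (RefSeq, GRCh38.p14) are shown because their common seed, in capitals, defines the matches searched in the members. The 3 forms share the seed and differ only outside it, and miR-29b-3p is made from 2 loci. The mature mimic sequence printed in the study holds the same seed but matches none of the 3 in full.
hsa-miR-29a-3p: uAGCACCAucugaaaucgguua
hsa-miR-29b-3p: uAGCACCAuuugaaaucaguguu
hsa-miR-29c-3p: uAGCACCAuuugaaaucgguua

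The longest annotated 3′ UTR of each member (GENCODE v44, GRCh38) was searched on the transcribed strand for TGGTGCT, the complement of seed bases 2 to 8 (called 7mer-m8, or 8mer when an A follows), for GGTGCTA (7mer-A1, bases 2 to 7 followed by an A) and for GGTGCT alone (6mer). SPARC and FSTL1 each held 1 7mer-m8, and no member held an 8mer. A 7mer-m8 or 8mer was present in 15.0% of 19245 protein-coding genes, in 20.2% of UTRs within 20% of the length of that of SPARC, and in 32.9% of those within 20% of the length of that of FSTL1. The matches of the 3 members that passed the test in both A-498 and ACHN are printed with their surroundings, the match in capitals. They are all on the minus strand of GRCh38.
SPARC 7mer-A1, 104 nt after the stop codon, chr5:151663458-151663484: gttctgcctggagacaaGGTGCTAaca
SPARC 7mer-A1, 137 nt, chr5:151663425-151663451: taagtgaatacattaacGGTGCTAaaa
SPARC 7mer-m8, 2187 nt, chr5:151661375-151661401: ggagagattggcccattTGGTGCTggc
FSTL1 7mer-m8, 227 nt, chr3:120396716-120396742: ttaagagaaactgtaaaTGGTGCTctg
FSTL1 7mer-A1, 644 nt, chr3:120396299-120396325: aaatactttttaccaaaGGTGCTAttt
SPOCK1 6mer, 2019 nt, chr5:136976627-136976653: gagataatttagaaaacaGGTGCTtaa

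SPARC therefore held 3 matches of 7 bases, of which the first and the second lie close together near the stop codon. FSTL1 held 2, both in the first part of a UTR of 4659 nt, and its 7mer-A1 was in 3 of 4 annotated isoforms while its 7mer-m8 was in all 4. SPOCK1, SPOCK2 and SMOC1 each held only a 6mer, at 2019, 2871 and 1465 nt from the stop codon. SPARCL1, SPOCK3 and SMOC2 held no match of 6 bases or more, which 31.5% of protein-coding genes do. The share of genes with a 7mer-A1 was not counted by itself. A match describes the letters of the UTR and does not show that the site is used.

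**Figure D1:**
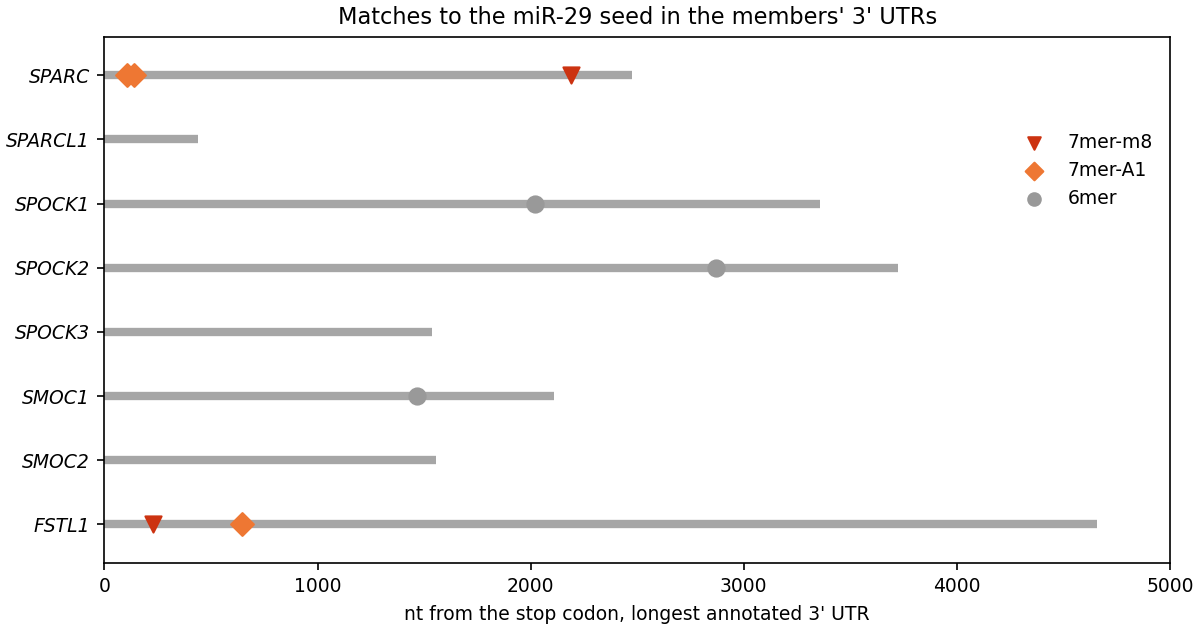
Matches to the miR-29 seed along the longest annotated 3′ UTR of each of the 8 members. The x axis gives nt from the stop codon, grey bars span the UTR, and symbols mark 7mer-m8, 7mer-A1 and 6mer matches. Matches of 7 bases lie only in SPARC and FSTL1, SPOCK1, SPOCK2 and SMOC1 have a 6mer each, and the other 3 have none.

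Of the 8 members, SPARC, FSTL1 and SPOCK1 had at least 10 counts in each of the 12 libraries and held between 99.5% and 99.98% of the family's reads. SPOCK2 was present at a low level. The other 4 were at or near 0: SPARCL1 had 0 to 19 counts per library, SPOCK3 0 to 5, SMOC1 0 to 6 and SMOC2 0 to 4. SPARCL1 was at 0 in both 786-O libraries, where 0 counts allow up to 0.0695 CPM in the control, and SPOCK3 was at 0 in all 6 ACHN libraries. These limits cover counting error only. In the control libraries, the share of the family in the reads in genes was 0.208% for 786-O, 0.363% and 0.365% for A-498 and between 0.0551% and 0.0578% for ACHN.

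To set levels of different genes side by side, CPM were divided by the length of all annotated exons in kb. In the A-498 controls SPARC stood at 502 ± 2.53 CPM per kb (SD, n = 2), above FSTL1 at 119 ± 2.28 and SPOCK1 at 25.0 ± 0.565. In the ACHN controls the order was the same, with SPARC at 78.4 ± 2.38 CPM per kb (SD, n = 3), FSTL1 at 15.7 ± 0.422 and SPOCK1 at 8.14 ± 0.346. In the 786-O control SPARC and FSTL1 lay at the same level, 144 and 145 CPM per kb, and SPOCK1 at 20.4. This order in 786-O depends on the gene length used: with the exons of the longest transcript alone, FSTL1 was at 238 and SPARC at 194 CPM per kb. SPOCK2 was far below in each line, at 0.235 CPM per kb for 786-O, 0.465 ± 0.0267 for A-498 and 0.0302 ± 0.0186 for ACHN. The SDs do not cover the choice of gene length, by which 10 of 12 such levels moved past their spread. With the longest transcript, the control ratio of SPARC to FSTL1 was 3.45 rather than 4.22 in A-498 and 4.08 rather than 4.98 in ACHN.

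The control libraries were also compared between lines, gene by gene. ACHN controls received a control inhibitor and the others a control mimic, so line and reagent cannot be told apart, and the lone 786-O library was assumed to vary like the others. Between A-498 and ACHN, 5 of 5 tested members differed (edgeR, adjusted p under 0.05), in a comparison where 75.3% of all genes did. SPARCL1 passed the count filter only through the A-498 controls, so its difference was set by the filter and is no support. SPARC was 6.34-fold higher in A-498 than in ACHN (log2 2.67, SE 0.0425, edgeR adjusted p = 5.92e-31), FSTL1 7.49-fold (2.91, SE 0.0424, adjusted p = 6.82e-32), SPOCK1 3.04-fold (1.61, SE 0.0465, adjusted p = 4.67e-24) and SPOCK2 15.2-fold (3.92, SE 0.254, adjusted p = 5.95e-15). The value for SPOCK2 rests on 25 counts in ACHN and was 4.53 on the log2 scale without ACHN control 2. SPARCL1 rested on 34 counts in A-498 and 3 in ACHN, a ratio of 12.7 with a counting interval from 3.98 to 64.4.

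Among the 5 members tested, FSTL1 alone had its highest control level in 786-O. It was 1.26-fold higher in 786-O than in A-498 (log2 0.33, SE 0.0546, edgeR adjusted p = 2.77e-06) and 9.43-fold higher than in ACHN (3.24, SE 0.0481, adjusted p = 4.21e-31). SPARC, in contrast, was 3.36-fold lower in 786-O than in A-498 (log2 -1.75, SE 0.0617, adjusted p = 1.26e-21) and 1.89-fold higher than in ACHN (0.92, SE 0.0515, adjusted p = 1.91e-16). SPOCK1 followed the order of SPARC, with a smaller step against A-498 and a larger one against ACHN, at -0.25 (SE 0.0622, adjusted p = 0.000698) against A-498 and 1.36 (SE 0.0569, adjusted p = 9.82e-20) against ACHN. SPOCK2 was lower in 786-O than in A-498 by log2 -0.93 (SE 0.253, edgeR adjusted p = 0.0015), a difference that DESeq2 did not call (adjusted p = 0.0898). SPARCL1, at 0 in 786-O, was at least 4.19-fold higher in A-498, with 0 set to 3 counts in the 786-O library. In all, 5 of 5 tested members differed between 786-O and A-498, where 74.7% of genes did, and 4 of 5 between 786-O and ACHN, where 73.6% did. The tested members again include SPARCL1, admitted only through the A-498 controls.

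With miR-29 mimic in A-498, SPARC, FSTL1 and SPOCK1 fell, and with miR-29 inhibitor in ACHN the same 3 genes rose. In A-498 these were 3 of the 5 members tested, and 27% of all 19676 genes tested were lower by the same rule (edgeR, adjusted p under 0.05). In ACHN they were 3 of 4 members tested, and 17.3% of 17904 genes were higher and 14.4% lower. No member was called in the opposite direction in either line. SPARC and FSTL1 moved most. They are also the 2 members with a 7mer match, and the part of the matches in the changes was not tested. In A-498, FSTL1 had the 10th and SPARC the 30th lowest log2 change of all tested genes, and SPOCK1 the 2962nd. SPARCL1, which held no match and was not called, had the 2061st. In ACHN, SPARC had the 7th and FSTL1 the 26th highest, and SPOCK1 the 701st.

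SPARC (ENSG00000113140, chr5:151661096-151686975, minus strand), also known as osteonectin, is the founding member of the family. In A-498 it was measured at 2338 and 2322 CPM in the control libraries and at 457 and 449 CPM with the mimic. Both mimic libraries were far below both controls, a 5.10-fold fall from a mean of 2330.0 ± 11.7 to 453 ± 5.60 CPM (SD, n = 2; log2 -2.35, SE 0.0309, edgeR adjusted p = 1.18e-15). In ACHN the control libraries held 362, 353 and 375 CPM and the inhibitor libraries 1575, 1628 and 1654 CPM. The groups did not overlap, and SPARC rose 4.38-fold, from 363 ± 11.1 to 1619 ± 39.8 CPM (SD, n = 3; log2 2.13, SE 0.0357, edgeR adjusted p = 5.23e-18). In 786-O SPARC went from 669.9 CPM in the control library to 144 CPM in the mimic library. That is a log2 ratio of -2.26 with a counting interval of -2.30 to -2.22, which says nothing of variation between cultures.

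FSTL1 (ENSG00000163430, chr3:120392293-120451016, minus strand) encodes a secreted glycoprotein, and its transcript is also the host of MIR198. The annotation places MIR198 on 62 of its 9409 exonic bases and exons of the pseudogene BTNL12P on 316 on the opposite strand. Both seed matches lie within the span of BTNL12P, and whether its exons reach them was not checked. The libraries were stranded, but the sources used here do not say whether the counting used strand. How reads in the shared exonic bases were assigned is therefore not known. In A-498 FSTL1 was at 1106 and 1136 CPM in the controls and at 139 and 138 CPM with the mimic. The fall was 8.03-fold, from 1121 ± 21.5 to 138 ± 0.980 CPM (SD, n = 2; log2 -3.01, SE 0.0359, edgeR adjusted p = 6.38e-16), and the groups were well apart. In ACHN it rose from 149, 144 and 152 CPM in the controls to 417, 439.6 and 463 CPM with the inhibitor. No inhibitor library came near the controls, and the rise was 2.93-fold (log2 1.55, SE 0.0445, n = 3 per group, edgeR adjusted p = 2.91e-14). In 786-O FSTL1 went from 1365 to 423 CPM, a log2 ratio of -1.73 (counting interval -1.75 to -1.70).

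SPOCK1 (ENSG00000152377, chr5:136975298-137598379, minus strand) encodes testican-1 and was the only testican above 4 CPM. In A-498 its controls were at 153 and 158 CPM and its mimic libraries at 109.7 and 106 CPM. It fell 1.43-fold without overlap of the groups (log2 -0.52, SE 0.0404, n = 2 per group, edgeR adjusted p = 8.62e-08). In ACHN the 3 controls lay at 52.9, 48.8 and 49.8 CPM and the 3 inhibitor libraries at 79.6, 78.3 and 79.3 CPM. It rose 1.54-fold, again with no overlap (log2 0.62, SE 0.0435, edgeR adjusted p = 4.6e-09). In 786-O it went from 126 to 79.5 CPM, a log2 ratio of -0.71 (counting interval -0.77 to -0.65). Its steps in all 3 lines were thus under 2-fold, whereas those of SPARC and FSTL1 were past 2-fold in each.

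**Figure D2:**
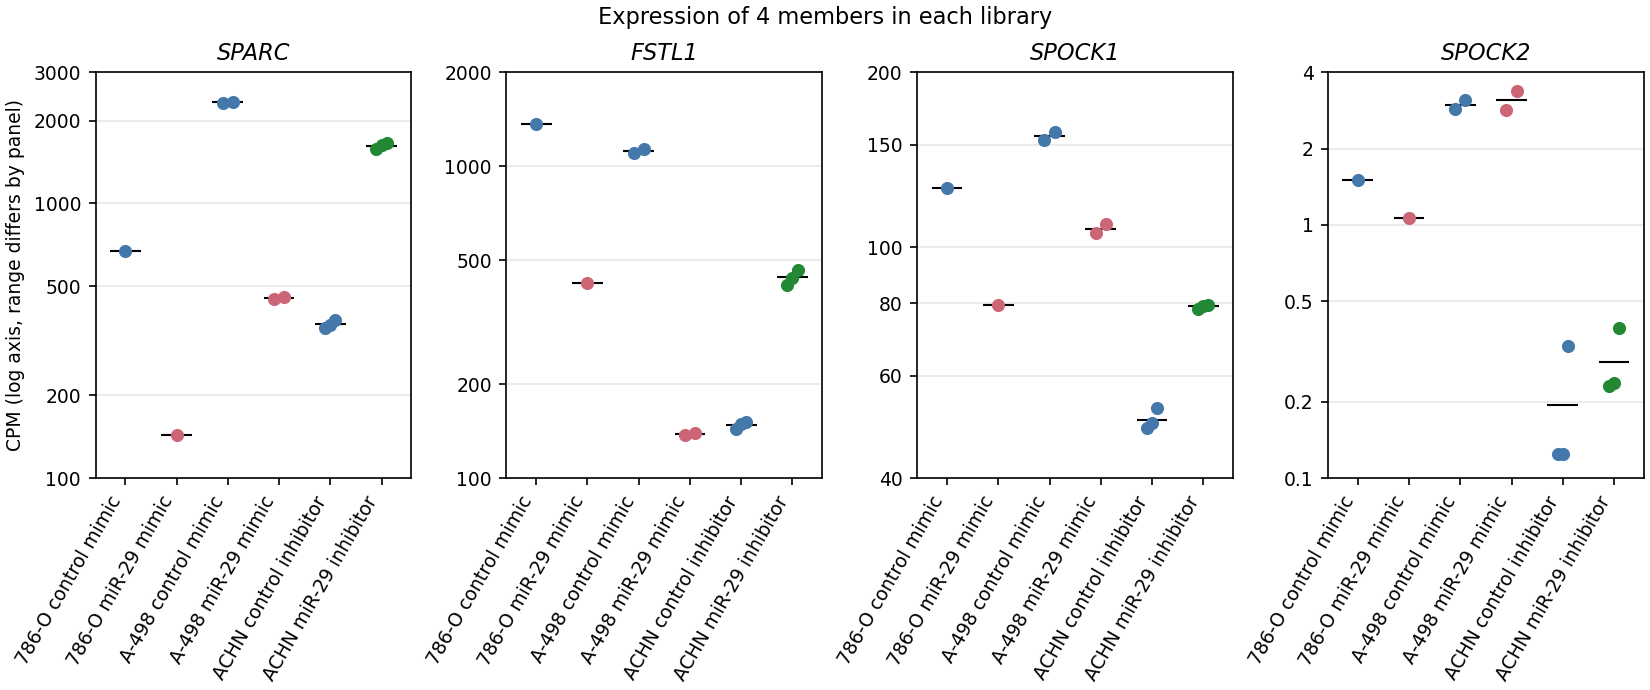
Level of SPARC, FSTL1, SPOCK1 and SPOCK2 in each of the 12 libraries. The y axis gives CPM on a log scale whose range differs between panels, each point is 1 library (blue for control, red for mimic, green for inhibitor) and black lines are group means. In A-498 and ACHN the treated and control libraries lie apart for SPARC, FSTL1 and SPOCK1 and overlap for SPOCK2. In 786-O each group is 1 library, so overlap cannot be judged. The share of all genes whose groups lie apart was not counted.

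SPOCK2, which encodes testican-2, was measured at 3.10 and 2.86 CPM in the A-498 controls and at 2.84 and 3.38 CPM with the mimic. The groups overlapped, and its log2 change of 0.07 had a 95% interval from -0.21 to 0.36 (edgeR adjusted p = 0.667). In ACHN its controls were at 0.125, 0.331 and 0.125 CPM and its inhibitor libraries at 0.390, 0.232 and 0.237 CPM, again with overlap (log2 0.55, interval -0.33 to 1.43, adjusted p = 0.35). Without ACHN control 2 the log2 change was 1.16 (edgeR adjusted p = 0.0898), and it ranged from 0.25 to 1.16 over the libraries left out. In 786-O it had 65 counts in the control and 45 with the mimic, a log2 ratio of -0.52 whose counting interval, -1.12 to 0.03, includes 0. A change of SPOCK2 of the size seen for SPOCK1 was therefore not detectable in ACHN at 5 to 24 counts per library.

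SPARCL1, the closest relative of SPARC, had 19 and 15 counts in the A-498 controls and 15 and 8 with the mimic. It passed the count filter in that line only (log2 -0.66, interval -1.58 to 0.27, edgeR adjusted p = 0.221). The CPM of its groups did not overlap either, although it was not called. The share of all genes without overlap was not counted. SPOCK3, SMOC1 and SMOC2 passed no filter in any line. The 6 counts of SMOC1 in the 786-O control against 0 with the mimic, and the 5 and 4 counts of SPOCK3 in the A-498 mimic libraries against 1 and 0 in the controls, are too few to compare.

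In 786-O, where 2-fold served as the line for a single pair of libraries, 2 of the 4 members with at least 10 counts were lower past 2-fold and 8.96% of 20370 genes were. All 4 had a ratio below 0, as did 51% of genes. The sum of 6 fibroblast and pericyte markers also went from 664 to 177 CPM in 786-O, nearly all of it COL6A3 (637 to 165 CPM). Of the other 5, LUM went from 18.2 to 6.52 CPM and PDGFRB from 5.39 to 3.59 CPM, ACTA2 was at 2.85 and 2.69 CPM, PDGFRA was below 0.1 CPM, and DCN was at 0 in both libraries. That sum was 32.7 to 33.3 CPM in the A-498 controls and 27.0 to 27.1 CPM with the mimic, and 38.3 to 39.8 CPM in the ACHN controls and 41.8 to 45.6 CPM with the inhibitor. Its part in the members' changes was not tested. As in any bulk library, fewer cells of a type and less RNA per cell cannot be told apart.

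**Figure D3:**
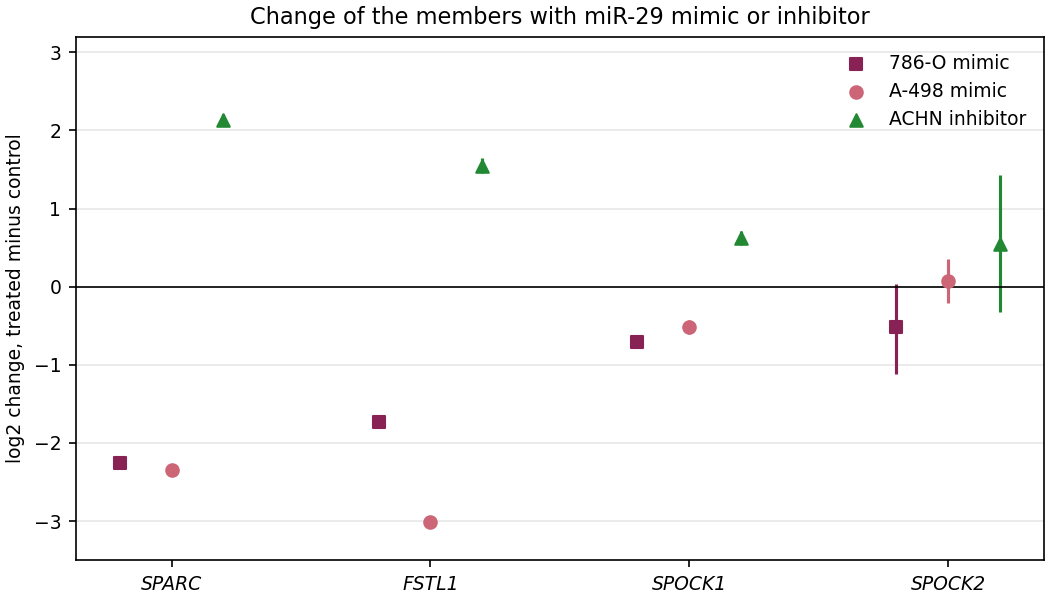
Log2 change of SPARC, FSTL1, SPOCK1 and SPOCK2, treated minus control. Circles are A-498 (n = 2 per group) and triangles ACHN (n = 3 per group), with bars for the 95% interval of the edgeR fit, and squares are 786-O (1 library per group), with bars for the counting interval only. SPARC, FSTL1 and SPOCK1 lie below 0 in both mimic lines and above 0 in ACHN, and the bars of SPOCK2 cross 0 in each line.

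The mimic was the same in 786-O and A-498, so the size of its effect was compared between them by an interaction term, whose spread comes from A-498 alone. FSTL1 fell less in 786-O than in A-498. The difference was 1.33 on the log2 scale (interval 1.20 to 1.45, edgeR adjusted p = 1.91e-12), or 2.51-fold, in a test that called 29.6% of 22587 genes. This call was lost when the biological coefficient of variation was fixed at 0.2 (adjusted p = 0.208), where the fit of A-498 alone estimated 3.83%. The effect on SPARC differed by 0.14 (interval 0.02 to 0.25, adjusted p = 0.0685), that on SPOCK1 by -0.15 (interval -0.30 to 0.01, adjusted p = 0.158) and that on SPOCK2 by -0.57 (interval -1.23 to 0.10, adjusted p = 0.207). Without A-498 control 1 the difference for SPARC was called (0.13, adjusted p = 0.0324), and without control 3 that for SPOCK1 was (-0.26, adjusted p = 0.000573).

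Because SPARC and FSTL1 changed by different amounts, their balance moved with treatment. In A-498, SPARC per kb was 4.29 and 4.14 times FSTL1 in the controls and 6.67 and 6.62 times with the mimic. In ACHN it was 4.95, 4.98 and 5.01 times in the controls and 7.66, 7.51 and 7.24 times with the inhibitor. The ratio was thus higher in treated libraries in both lines, through a deeper fall of FSTL1 in A-498 and a steeper rise of SPARC in ACHN. The log2 difference was 0.66 in A-498 (exact permutation p = 0.333, two-sided) and 0.59 in ACHN (exact permutation p = 0.1, two-sided), and these are the smallest p-values that 2 against 2 and 3 against 3 libraries allow. In 786-O the ratio went the other way, from 0.996 to 0.689.

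**Figure D4:**
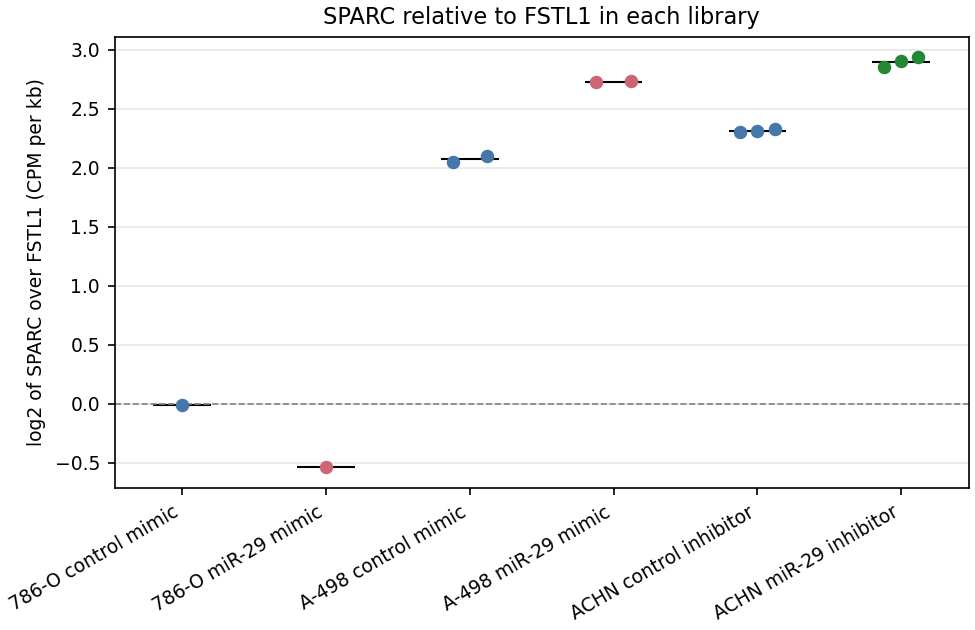
SPARC relative to FSTL1 in each library. The y axis gives log2 of the ratio of their CPM per kb of exon, points are libraries (blue for control, red for mimic, green for inhibitor), black lines are group means and the dashed line marks equal levels. The 2 A-498 mimic libraries and the 3 ACHN inhibitor libraries lie above their controls, and both 786-O libraries lie at or below 0.

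The levels reached after treatment in one line can be set beside the controls of another, with the reagent differing. With the mimic, FSTL1 in A-498 was at 138 to 139 CPM, close to the 144 to 152 CPM of the ACHN controls. SPARC in A-498 with the mimic, at 449 to 457 CPM, stayed above the 353 to 375 CPM of the ACHN controls. With the inhibitor, SPARC in ACHN reached 1575 to 1654 CPM, below the A-498 controls and above the 669.9 CPM of the 786-O control, while FSTL1 in ACHN, at 417 to 463 CPM, stayed below the controls of both other lines. The share of the family in the reads fell from 0.363% and 0.365% to 0.0759% and 0.0747% in A-498 and from 0.208% to 0.0617% in 786-O, and rose to between 0.203% and 0.212% in ACHN. SPOCK1, which changed least of the 3 main members, made up 4.24% and 4.36% of the family's reads in the A-498 controls and 15.5% and 15.2% with the mimic.

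The genes most like SPARC and FSTL1 over the 12 libraries were found by the root mean square difference of log2 CPM after centring each line, among 8761 genes. This measure uses the same treated and control libraries as the tests above and describes the pattern only. For SPARC they were COL4A1 (0.203), a basement membrane collagen chain, ADAM12 (0.246), a metalloprotease, and POGLUT2 (0.273), a glycosyltransferase of the endoplasmic reticulum. For FSTL1 they were TUBA1A (0.204), whose reads can be shared with near-identical tubulin genes, COL4A1 (0.224) and POGLUT2 (0.226). SPARC and FSTL1 themselves differed by 0.301, and 0.0456% of the genes were closer to SPARC than FSTL1 was. SPOCK1 was farther from SPARC, at 0.816, with 3.75% of genes closer.

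The family was then set beside genes that work with it, in 5 lists. Their counts stand against shares over all genes of 27% lower and 25.5% higher in A-498, 14.4% lower and 17.3% higher in ACHN, and 8.96% lower and 6.73% higher past 2-fold in 786-O. The list of SPARC partners holds 15 genes for the collagens it binds, the collagen chaperone SERPINH1, receptors and growth factors. In A-498, 11 of its 12 tested genes fell and none rose, with a median log2 change of -1.02 beside 0.0045 over all tested genes. COL4A1 fell from 537 ± 17.5 to 98.0 ± 1.29 CPM (log2 -2.44, SE 0.0395, edgeR adjusted p = 1.59e-14) and SERPINH1 by 1.89 on the log2 scale, and VCAM1 was the gene not called (-0.04). In ACHN, 10 of 11 rose and none fell, with a median of 0.48 beside 0.0038. COL1A1, a fibrillar collagen chain, rose by log2 2.48 from 1.33 ± 0.264 to 7.55 ± 0.428 CPM (SE 0.126, edgeR adjusted p = 5.41e-11) and COL5A2 by 1.61. In 786-O, 9 of 11 were lower past 2-fold. The list shares 6 genes with the known miR-29 targets used above, of which 4 were tested in each line. Outside them, 7 of 8 fell in A-498, 6 of 7 rose in ACHN and 5 of 7 were lower past 2-fold in 786-O. These remaining genes were not checked for being miR-29 targets themselves.

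Proteases tied to the testicans made up a list of 7. In A-498, 5 of 7 tested fell and 1 rose (median -0.41), where 27% of all genes fell and 25.5% rose. MMP15, a membrane-bound matrix metalloprotease, fell by 2.19 on the log2 scale (SE 0.0899, edgeR adjusted p = 1.12e-10), MMP2, a gelatinase, had 39 counts in the controls and 4 with the mimic, and MMP16 rose by 1.48. MMP2 passed the count filter only through the controls, so its fall among the 5 was set by the filter. In ACHN, 3 of 5 rose and none fell (median 0.22), led by MMP14, the activator of MMP2, at log2 0.64 (SE 0.0536, adjusted p = 4.32e-08), and by CTSB, a lysosomal cathepsin, at 0.32. In 786-O, 3 of 7 were lower past 2-fold, beside 8.96% of all genes.

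The list for FSTL1 and SMOC signalling holds 21 genes of the BMP and activin system with DIP2A and TLR4. In A-498, 7 of 19 fell and 2 rose, where 27% of all genes fell and 25.5% rose, with a median of -0.11. Scaled by library size alone, 5 fell and 2 rose, beside 22.1% and 31.5% of all genes. The count of falls is thus no result about the list. INHBB and INHBA, subunits of the activins, fell by 1.20 and 1.06 on the log2 scale. In ACHN, 3 of 14 rose and 2 fell (median 0.05), close to the 17.3% and 14.4% of all genes and no result about the list. Among its genes, INHBA was higher by log2 0.54 (SE 0.0416, edgeR adjusted p = 1.7e-08) and ID2, a BMP-responsive gene, was lower by log2 -0.40 (SE 0.0536, adjusted p = 1.32e-05). In 786-O, INHBA was lower (-2.74) and INHBB higher (1.09). TLR4, a receptor known to respond to FSTL1, rose in A-498 (0.52) and in ACHN (0.36), while its log2 ratio was -1.67 for 786-O.

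Of the other matricellular genes, 8 of 13 fell and 4 rose in A-498 (7 and 5 by library size alone), with a median of -0.37. POSTN (periostin) fell from 39.1 ± 2.54 to 10.6 ± 0.828 CPM (log2 -1.87, SE 0.0720, edgeR adjusted p = 5.58e-11), and CCN4 had 69 counts in the controls and 3 with the mimic, a ratio of 24.8 (counting interval 8.13 to 123). CCN4 passed the count filter only through the controls, so its fall among the 8 was set by the filter. CCN3 and THBS4 rose, by log2 1.05 and 1.10. In ACHN, 5 of 11 rose and 3 fell (median 0.18), with CCN2 higher by log2 0.76 (SE 0.0451, adjusted p = 5.74e-10) and CCN5 by 0.37 (adjusted p = 0.0105). In 786-O, 2 of 11 were higher past 2-fold and none lower, beside 6.73% and 8.96% of all genes. Of these 2, THBS4 had only 3 counts in its lower library. Among the relatives that share only the follistatin-like domain, FST and AGRN rose in A-498 (2 of 6, log2 1.73 and 0.52) and none fell. In ACHN, IGFBP7 rose (1 of 4, 0.26) and none fell. With so few genes, beside 25.5% and 17.3% of all genes higher in the 2 lines, these counts are no result about the list. In 786-O, 2 of 7 were higher past 2-fold and none lower, and 1 of these 2, TMEFF1, had 3 counts in its lower library. AGRN went the other way there with the same mimic, from 592 to 376 CPM (log2 ratio -0.69). FST rested on 36 counts in the A-498 controls and 128 with the mimic. In A-498, scaling by library size alone moved the calls over all genes from 27% lower and 25.5% higher to 22.1% lower and 31.5% higher.

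**Figure D5:**
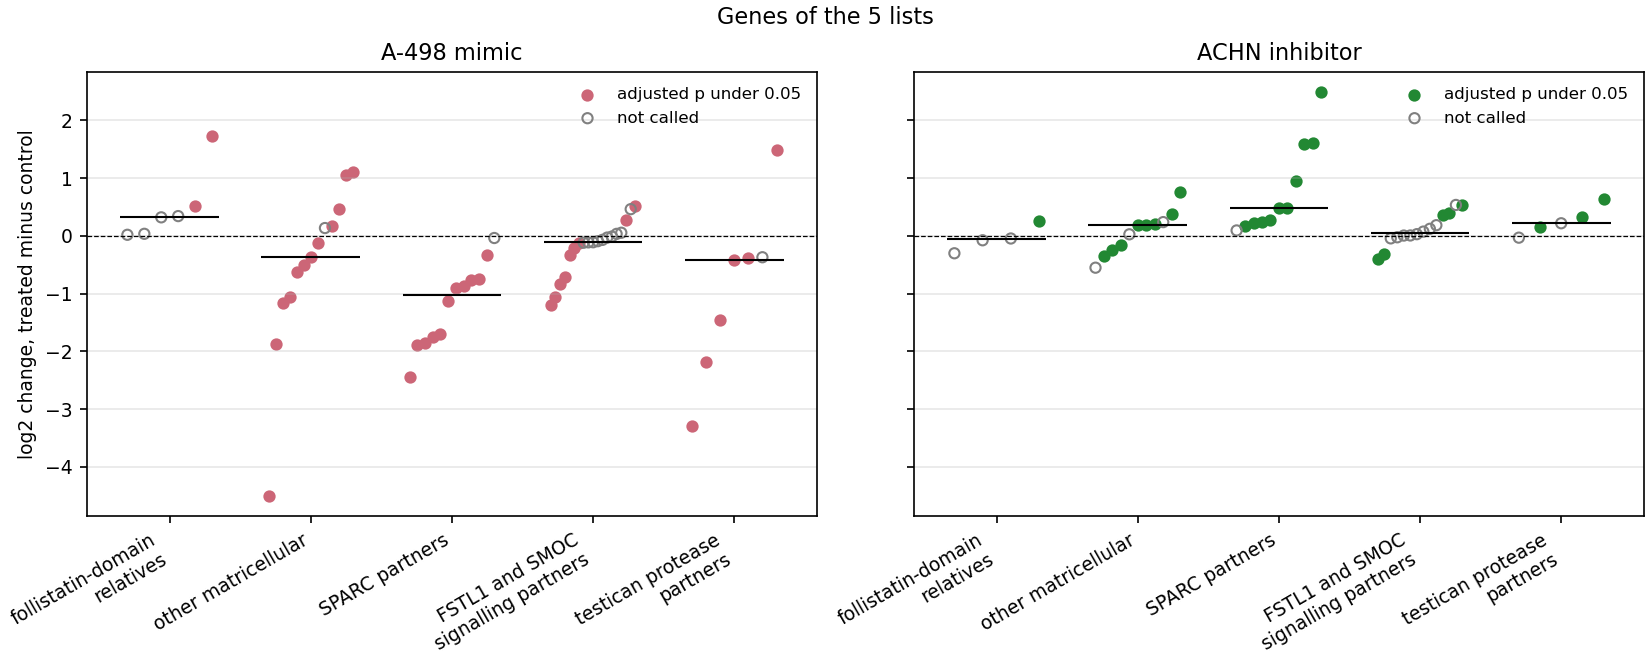
Log2 changes, treated minus control, of the genes of the 5 lists in A-498 (left, red) and ACHN (right, green). Filled points passed the edgeR test (adjusted p under 0.05), open points did not, and black lines are list medians. All 12 SPARC partners in A-498 lie below 0 and all 11 in ACHN above 0, while the follistatin-domain relatives lie on both sides in ACHN.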

How the data were processed

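RNA-seq was performed by the authors on total RNA depleted of ribosomal RNA with a stranded, paired-end protocol. Reads were aligned to GRCh38 with HISAT2 and counted per Ensembl gene with HTSeq in its strict intersection mode (versions not given in the sources used here). The raw counts deposited by the authors, without normalisation, were used for 12 libraries. The authors also deposited 3 tables of their own DESeq2 fold changes and p-values, which were not used. Symbols, exon lengths and 3′ UTRs came from GENCODE v44, which gave a symbol for 98.1% of genes. Between 37.2% and 48.0% of reads were assigned to no gene, taken over all 5 HTSeq summary classes together, and were left out of library sizes.

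Groups were taken from the labels. Counts were scaled by TMM and tested with the edgeR (4.0.16, R 4.3.3) quasi-likelihood test after filterByExpr, with Benjamini-Hochberg adjustment over all tested genes and calls at 0.05. DESeq2 (1.42.0) was an alternative, with other scalings, filters and each library left out. The edgeR step was tested on simulated counts. In 786-O, log2 ratios of CPM used a prior count of 2 and genes with at least 10 counts over both libraries, with exact 95% counting intervals. Depth intervals cover counting error only, since reads are not independent molecules. The study calls its replicates biological, and the labels do not name separate cultures. No 2 libraries of a group agreed within sampling noise. Named genes were all members, the 2 largest called changes per list and line and the 3 genes most like SPARC and FSTL1, with others of the lists named as examples after their values were seen. The members and lists were chosen with earlier results of these data known.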

Additional observations from a re-analysis of the deposited data

Results flagged for a closer look

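The fall of FSTL1 with the mimic differed between the lines that received it. It was smaller in 786-O than in A-498 by 1.33 on the log2 scale, in the edgeR test of the interaction (adjusted p = 1.91e-12). The 786-O groups were 1 library each, so the spread in this test was taken from A-498, and the call was lost with the coefficient of variation fixed at 0.2 (edgeR adjusted p = 0.208). FSTL1 went from 1365 to 423 CPM in 786-O (1 library per group) and from 1121 ± 21.5 to 138 ± 0.980 CPM in A-498 (SD, n = 2). The study measured miR-29b by qRT-PCR after the mimic in 786-O and shows no such measurement for A-498. The mimic level reached in each line was not measured in these libraries, and its part in the difference was not tested.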

How the results depend on the processing

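SPARC, FSTL1 and SPOCK1 kept their direction and their call in A-498 and in ACHN under every alternative (DESeq2, RLE factors, library size alone, no filter, a CPM of at least 1, all 12 libraries in 1 fit, each library left out). Over these, the log2 change in A-498 lay between -2.38 and -2.27 for SPARC, -3.04 and -2.93 for FSTL1 and -0.55 and -0.44 for SPOCK1, and in ACHN between 2.11 and 2.16, 1.51 and 1.58, and 0.60 and 0.65. In ACHN, same-numbered libraries did not deviate together (correlations 0.0418, -0.0504 and -0.00467), and with the replicate block 3 members were called as without it. A-498 groups share only number 1, so no paired analysis was possible there.

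For the difference between 786-O and A-498, 1 member was called, 0 with the coefficient of variation fixed at 0.2, 2 with library size alone (SPOCK1 added, -0.24, edgeR adjusted p = 0.0174) and 1 to 2 with a library left out. Seed matches were found in 2 members, and in 5 with the 6mer counted. Reversals fell on values near 0 that were not called. IGFBP7 in A-498 was at -0.011 without a filter, and with a library left out SPOCK2 in A-498 ranged from -0.055 to 0.19 (0.25 to 1.16 in ACHN, with no reversal), IGFBP7 from -0.017 to 0.034, AGRN in ACHN from -0.16 to 0.0067 and MMP15 in ACHN from -0.089 to 0.029. AGRN passed the test without inhibitor 2 (edgeR adjusted p = 0.00382). CCN5 in ACHN lost its call without control 1 (edgeR adjusted p = 0.0548). The cause of these shifts was not tested. In ACHN, 5 to 24 counts limit SPOCK2, and counts of at most 19 limit SPARCL1, SPOCK3, SMOC1 and SMOC2 in all lines.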
